A study of Homo sapiens with 4 samples.

Results

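The genes described here code for the plasminogen activators PLAU (urokinase) and PLAT (tissue-type activator), the urokinase receptor PLAUR, the protease-inhibiting serpins SERPINE2 and SERPINB2, tissue factor (F3), its inhibitors TFPI and TFPI2, and the surface protein CDCP1. Their members are the probe sets whose only gene symbol in the platform annotation is 1 of these 9 names. They came to 19 probe sets of 8 genes, among 41032 probe sets of 19740 genes. SERPINB2 had no named probe set and was not analysed here. They were read on 4 one-colour Affymetrix arrays of human lung adenocarcinoma cell lines, 1 array per group. The groups were CL1-5 with a PSAT1 hairpin, CL1-5 with a non-silencing hairpin, CL1-0 with a PSAT1 expression vector and CL1-0 with the control vector, all of them stable transductants that had spent 2 weeks in puromycin, per the labels. CL1-5 was selected from CL1-0 for invasiveness, and PSAT1 is the aminotransferase of serine synthesis.

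Urokinase and the tissue-type activator cut plasminogen into plasmin, a protease that dissolves fibrin and opens the matrix around cells. The urokinase receptor holds urokinase at the cell surface, and serpins trap the activators in dead-end complexes. Tissue factor binds coagulation factor VII and starts clotting. TFPI blocks that complex through its Kunitz domains, while TFPI2 is a related Kunitz inhibitor that acts mainly on plasmin and other matrix proteases. In carcinoma cells these surface proteins are best known from invasion and from clotting around tumours.

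Values are MAS5 signals on a linear scale. A signal below 49.0, the median of all probe sets on all arrays, was treated as at the floor, and a fold against an array at the floor is a lower bound, written "at least". A gene counts as measured in a pair of arrays where at least 1 was above the floor. "Higher", "lower", "rose" and "fell" mean 2-fold or more, a rule of size. With 1 array per group no test was possible and no p-value is given, so a difference between 2 arrays also covers culture, selection and labelling. Among probe sets of 1 gene, the log2 ratio had an SD of 0.514 between the lines, 0.289 within CL1-0 and 0.175 within CL1-5, which does not replace a replicate.

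The targeted gene and the arrays were read first. In CL1-5, the brighter PSAT1 probe set had 143 with the PSAT1 hairpin against 1760 with the non-silencing hairpin, a 12.3-fold fall. The other had 107 against 384, a 3.58-fold fall. In CL1-0, the brighter had 5494 with the PSAT1 vector against 4214 with the control vector (log2 ratio 0.38). The other had 1617 against 1509 (0.10), so both were under 2-fold in CL1-0. The arrays had 48.0% to 52.0% of probe sets above the floor, and the median gene ratio of CL1-5 non-silencing over CL1-0 vector was -0.49 on the log2 scale. Under quantile normalization that median was 0.00, so ratios between the lines below are best read against -0.49. The labels call the cells type II alveolar cells. Of 8 alveolar type II markers, 6 were above the floor on each array, all at low signal (the summed signal of the 8 was 642 to 877), and SFTPD and SLC34A2 were at the floor throughout. Of the 6 epithelial markers, KRT18, KRT8 and KRT7 were above the floor on every array and EPCAM, KRT19 and CDH1 on none. KRT18 read 5657 and 5308 on the CL1-5 arrays (PSAT1 hairpin, then non-silencing) and 635 and 757 on the CL1-0 arrays (PSAT1, then vector), and KRT8 read 1675, 1271, 60.4 and 77.8 in the same order. The 4 blood cell and platelet markers with a named probe set were at the floor throughout. Of the 4 endothelial markers, PECAM1 was above the floor on every array, at 54.3 to 150. VWF was above it on the CL1-5 arrays alone, TEK on the CL1-0 vector array alone and CDH5 on none. Of the 5 fibroblast markers, COL1A1 was above the floor on every array, at 221 to 288, and COL3A1 on the CL1-0 vector array alone.

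Between the control arrays of the lines, the activators, the receptor, tissue factor and CDCP1 were all higher in CL1-5. The inhibitors TFPI and TFPI2 were lower there, TFPI2 being above the floor on the CL1-0 vector array alone. Of the 8 member genes, all measured, 5 were higher in CL1-5 with the non-silencing hairpin than in CL1-0 with vector, where 5.25% of all 13720 measured genes were higher, and 2 were lower, against 24.8% of all genes. Among their probe sets, 10 of 16 measured were higher (4.81% of all probe sets) and 4 were lower (23.4%). On the deposited scale the share of members that were lower is thus close to the background. The members and the wider lists were chosen with earlier results of these data known. These shares, and those given below, are therefore descriptions and not a test of enrichment. Under quantile normalization the same 5 and 2 genes were called, where 9.53% and 8.93% of all genes were. The nearness of the lower share to the background thus depends on the scaling. The median log2 ratio of the 8 genes was 2.45. SERPINE2 was the 1 member gene under 2-fold. The pair confounds the line with the control construct, since 1 line carries a hairpin vector and the other an expression vector, so the line and the construct cannot be told apart.

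**Figure D1:**
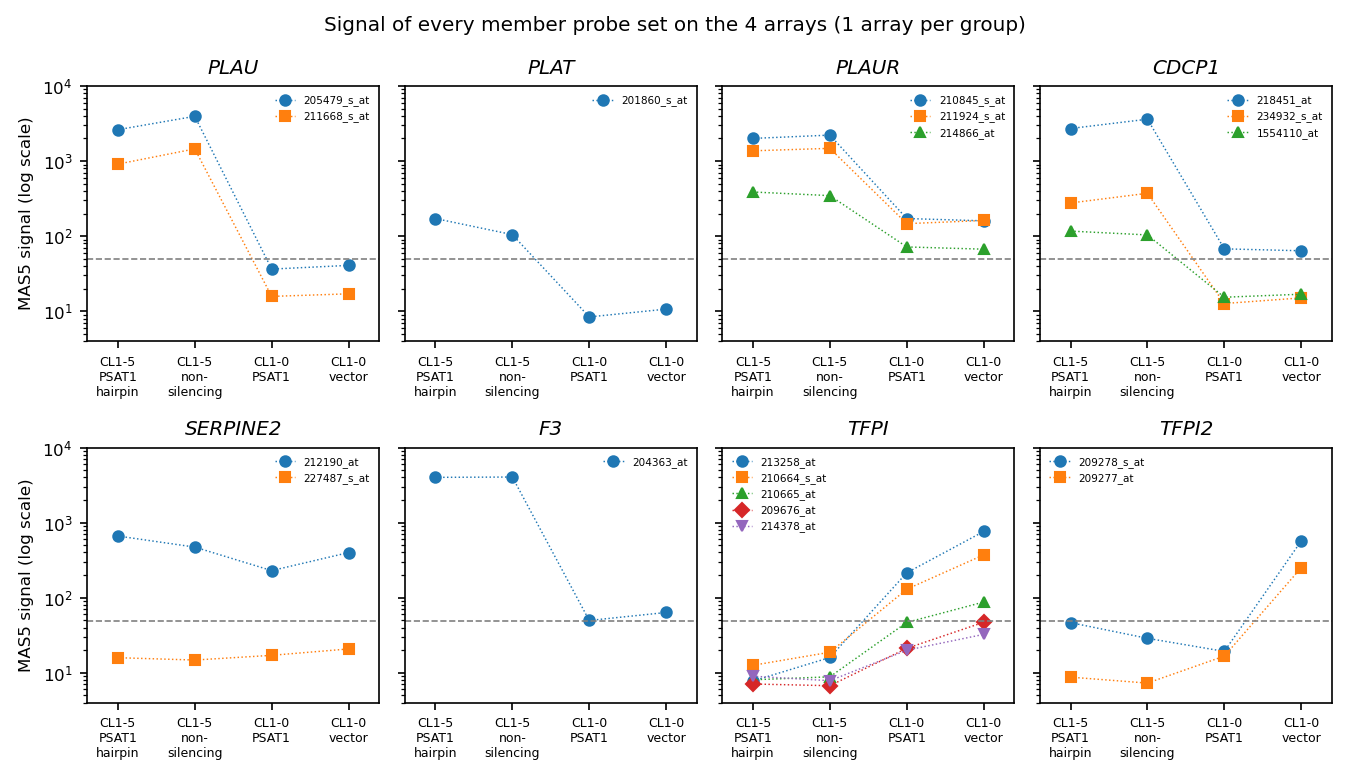
MAS5 signal (log axis) of all 19 member probe sets on the 4 arrays, 1 panel per gene and 1 symbol per probe set. The dashed line is the floor of 49.0. PLAU, PLAUR, CDCP1 and F3 stand high on both CL1-5 arrays by their brightest probe sets. PLAT is above the floor on the CL1-5 arrays alone, at 172 and 105, and TFPI and TFPI2 are highest on the CL1-0 vector array.

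PLAU, the secreted urokinase protease, had 2 probe sets. The brighter read 2621 in CL1-5 with the PSAT1 hairpin, 3948 in CL1-5 with the non-silencing hairpin, 36.5 in CL1-0 with PSAT1 and 40.9 in CL1-0 with vector. The dimmer read 912, 1455, 15.8 and 17.1 in the same order. Both were at the floor on both CL1-0 arrays and far above it on both CL1-5 arrays. The control arrays of the lines differed at least 80.6-fold by the brighter probe set and at least 29.7-fold by the dimmer.

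PLAT, the tissue-type activator, had 1 probe set. It read 172 with the PSAT1 hairpin and 105 with the non-silencing hairpin in CL1-5, and 8.42 with PSAT1 and 10.7 with vector in CL1-0. Only the CL1-5 arrays were above the floor. Between the control arrays it was at least 2.15-fold higher in CL1-5, and with the floor raised to the 65th percentile the log2 ratio was 0.06, since the signal then lay next to the floor.

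PLAUR, the glycolipid-anchored receptor of urokinase, was above the floor on every array. Its brightest probe set read 2005 in CL1-5 with the PSAT1 hairpin, 2219 with the non-silencing hairpin, 172 in CL1-0 with PSAT1 and 160.2 with vector. The others read 1371, 1479, 147 and 162, and 388, 347, 72.0 and 67.2, in the same order. All 3 probe sets placed both CL1-5 arrays above both CL1-0 arrays, with CL1-5 non-silencing over CL1-0 vector at 13.9-fold, 9.14-fold and 5.16-fold.

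CDCP1, a transmembrane protein that is cleaved by serine proteases such as plasmin and signals through SRC kinases, was also higher in CL1-5. Its brightest probe set read 2717 in CL1-5 with the PSAT1 hairpin, 3614 with the non-silencing hairpin, 67.9 in CL1-0 with PSAT1 and 64.0 with vector. The second read 277, 373, 12.7 and 15.1, and the third 117, 104, 15.4 and 16.9, in the same order. Between the control arrays CL1-5 was 56.5-fold higher by the brightest, at least 7.61-fold by the second and at least 2.13-fold by the third. The dimmer probe sets have little room above the floor, so their bounds are low.

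SERPINE2 (protease nexin 1), an inhibitor of thrombin and of the plasminogen activators, was under 2-fold between the lines. Its brighter probe set read 663 in CL1-5 with the PSAT1 hairpin, 472 with the non-silencing hairpin, 229.5 in CL1-0 with PSAT1 and 399 with vector. The control arrays had a log2 ratio of 0.24, CL1-5 over CL1-0, which was 0.90 under quantile normalization and 0.86 under median centring. The other probe set was at the floor on every array.

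F3, tissue factor, had 1 probe set. It read 4004 in CL1-5 with the PSAT1 hairpin, 4044 with the non-silencing hairpin, 49.8 in CL1-0 with PSAT1 and 63.6 with vector. The CL1-5 arrays were nearly equal, and the CL1-0 arrays lay just above the floor. CL1-5 with the non-silencing hairpin was 63.5-fold higher than CL1-0 with vector.

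Of the Kunitz inhibitors, TFPI had the opposite order, with both CL1-0 arrays above both CL1-5 arrays. TFPI2 was high on the CL1-0 vector array alone. TFPI, the plasma and cell-surface inhibitor of the tissue factor complex, had 5 probe sets. The brightest read 7.78 in CL1-5 with the PSAT1 hairpin, 16.0 with the non-silencing hairpin, 215 in CL1-0 with PSAT1 and 762 with vector. The second read 12.6, 18.8, 129.8 and 372, and the third 8.08, 8.85, 46.9 and 87.6, in the same order. The other 2 were at the floor on every array, with their highest signals, 47.1 and 32.5, on the CL1-0 vector array. All 5 were at the floor on both CL1-5 arrays and all 5 read highest on the CL1-0 vector array. The control arrays differed at least 15.5-fold by the brightest and at least 7.59-fold by the second, CL1-5 being lower, and the third gave a bound under 2-fold.

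TFPI2 stood above the floor on 1 array alone. Its brighter probe set read 46.6 in CL1-5 with the PSAT1 hairpin, 28.8 with the non-silencing hairpin, 19.3 in CL1-0 with PSAT1 and 569.6 with vector. The other read 8.76, 7.30, 16.7 and 251 in the same order. The CL1-0 vector array was the high one in both. CL1-5 with the non-silencing hairpin was at least 11.6-fold lower than CL1-0 with vector by the brighter probe set and at least 5.13-fold lower by the other.

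The start regions of 3 members are shown because they hold a match to TGANTCA, the motif bound by AP-1 (dimers of the JUN and FOS families), and because these members stand at opposite ends of the line comparison: F3 and PLAUR higher in CL1-5, TFPI2 lower. Each stretch is printed 5′ to 3′ on the strand of its gene from RefSeq promoter windows (GRCh38.p14), upstream of the annotated start, with the match in capitals. F3 is at chr1:94541923-94542009 (minus strand), PLAUR at chr19:43670309-43670395 (minus strand) and TFPI2 at chr7:93890794-93890880 (minus strand).
F3: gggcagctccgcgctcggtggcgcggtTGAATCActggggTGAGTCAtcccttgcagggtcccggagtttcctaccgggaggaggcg
PLAUR: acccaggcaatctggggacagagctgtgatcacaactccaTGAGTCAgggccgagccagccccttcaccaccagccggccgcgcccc
TFPI2: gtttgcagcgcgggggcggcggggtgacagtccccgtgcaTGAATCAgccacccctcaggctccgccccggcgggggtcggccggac
F3 held 2 matches, beginning 223 and 210 bases upstream of the start, PLAUR 1 at 186 bases and TFPI2 1 at 87 bases.

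Windows of 300 bases, 250 of them upstream, were searched on both strands for 7 members. The 7 members had 9 windows. TGANTCA was found in 3 of the 9 windows, each of a different member, and in 7.71% of all 35116 windows. The kappa B motif was found in TFPI2 (5.91% of all windows) and GGAAGGAA, a tandem ETS core, in CDCP1 (3.67%). No match was found for PLAU, which has 2 windows, TFPI or SERPINE2, which says only that these letters are not in those windows. Of the members with a TGANTCA match, F3 and PLAUR were higher in CL1-5 between the control arrays. TFPI2 was lower there and was above the floor on the CL1-0 vector array alone. What the matches do in these cells was not tested.

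With PSAT1 in CL1-0, TFPI and TFPI2 fell, and PLAU and PLAT were at the floor on both arrays. Of 6 member genes measured in this pair, 2 were lower with PSAT1 and 0 higher, where 1.01% of all 13187 measured genes were lower and 2.56% were higher. Among their probe sets, 4 of 11 measured were lower (0.936% of all probe sets). The CL1-0 vector array is also the reference of the line comparison. TFPI being lower in both pairs thus rests in part on the same vector reading. For TFPI2 it rests on that reading alone. The other array of each pair was at the floor, so both pairs gave the same bound, -3.54 by the brighter probe set.

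TFPI2 fell at least 11.6-fold with PSAT1 against vector by its brighter probe set, with 19.3 against 569.6, and at least 5.13-fold by the other, with 16.7 against 251. TFPI fell 3.54-fold, with 215 against 762, by its brightest probe set, and 2.87-fold, with 129.8 against 372, by the second. The third gave 46.9 against 87.6, at least 1.79-fold. With the mean over its 5 probe sets, 2 of them at the floor on both arrays, TFPI had a log2 ratio of -0.84, under 2-fold. The fibroblast marker COL3A1 was, like TFPI2, above the floor on the CL1-0 vector array alone, with 15.8 and 16.4 on the CL1-5 arrays, 27.4 in CL1-0 with PSAT1 and 312 in CL1-0 with vector. The summed signal of the 5 fibroblast markers was 320 with PSAT1 and 643 with vector, with DCN, LUM and COL1A2 at the floor on both, and its part in the falls of TFPI and TFPI2 was not tested.

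SERPINE2 had 229.5 with PSAT1 against 399 with vector, a log2 ratio of -0.80, and F3 had 49.8 against 63.6 (-0.35). PLAUR gave 0.10, -0.14 and 0.10 over its 3 probe sets, and CDCP1 gave 0.09. None of these reached 2-fold. F3 and CDCP1 were close to the floor on both arrays, which left little range for a fall to be measured.

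**Figure D2:**
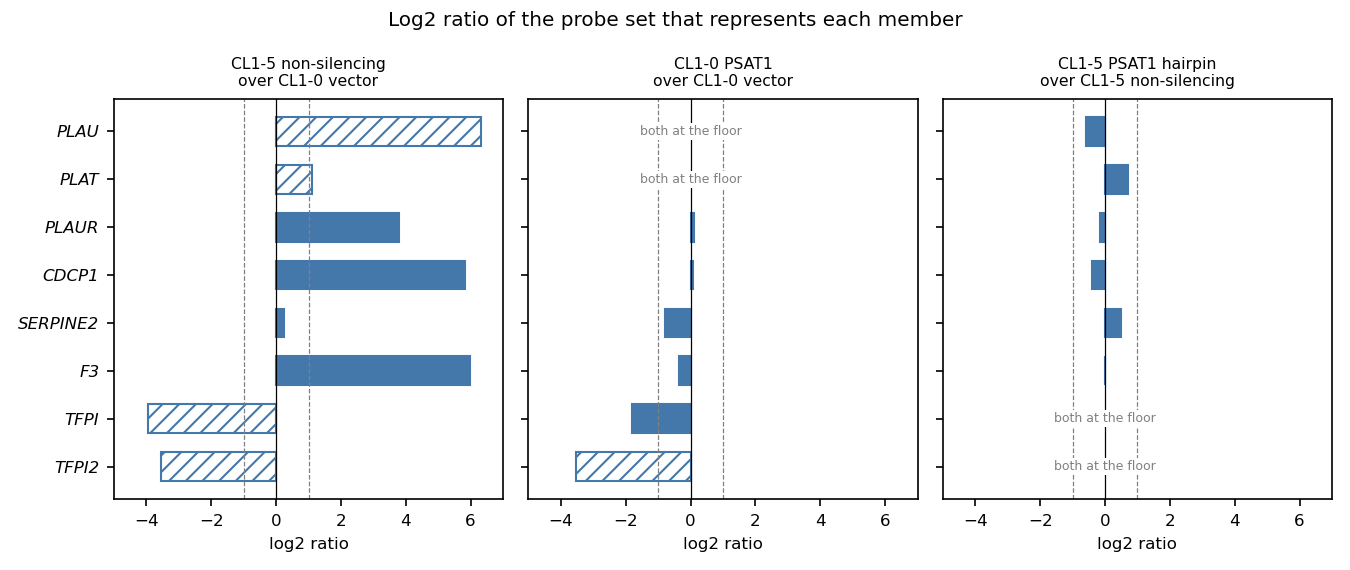
Log2 ratio of the probe set that represents each gene (its brightest on average) in the 3 pairs of arrays, first-named over second-named array. Hatched bars are bounds, with 1 array at the floor, and dashed lines mark 2-fold. The line comparison holds the large ratios, PSAT1 in CL1-0 the falls of TFPI and TFPI2, and no member reached 2-fold with the PSAT1 hairpin in CL1-5.

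With the PSAT1 hairpin in CL1-5, no member reached 2-fold. Of 6 member genes measured, 0 were higher and 0 lower, where 0.398% of all 12821 measured genes were higher and 0.421% were lower, so that no call among 6 genes is close to the background. Of 11 measured probe sets, 0 were higher (0.324% of all probe sets) and 0 lower (0.432%). The members' median log2 ratio was -0.08, against 0.02 over all measured genes.

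PLAU had 2621 with the PSAT1 hairpin against 3948 with the non-silencing hairpin, a log2 ratio of -0.59, and its second probe set had 912 against 1455 (-0.67). Both ratios were negative and of like size, under 2-fold. CDCP1 had 2717 against 3614 (-0.41) and 277 against 373 (-0.43), while its dimmest probe set had 117 against 104 (0.17). PLAT had 172 against 105 (0.70), the largest ratio of the members in this pair, and SERPINE2 had 663 against 472 (0.49). PLAUR gave -0.15, -0.11 and 0.16, so its probe sets differed in sign. F3 gave -0.01. TFPI and TFPI2 were at the floor on both arrays.

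Across the 4 arrays, the genes most like each member were sought by the Euclidean distance of their floored log2 signals, each gene centred on its own mean. Points at the floor are shared by many such genes, and 4 arrays from 2 lines give a weak description. Nearest to PLAU were the neutrophil chemokine CXCL8 (distance 0.27) and the trypsinogen gene PRSS3 (0.30), nearest to F3 the matrix protein gene TGFBI (0.27) and ARHGAP29 (0.29), and nearest to CDCP1 the hyaluronan receptor gene CD44 (0.07) and THBD (0.20). PLAUR was nearest to the TNF family ligand gene CD70 (0.11) and the trypsinogen gene PRSS2 (0.14), which, like PRSS3, belongs to a family of near-identical genes, so their probe sets may read each other's transcripts. TFPI was nearest to the cochaperone gene DNAJB4 (0.16) and LRRN3 (0.22), SERPINE2 to the interferon-induced IFITM3 (0.10) and the kinase gene MARK1 (0.12), and PLAT to the noncoding PICSAR (0.04) and FAR2 (0.12). TFPI2 had no close match, with the interferon-induced IFI44 at 0.92 and the cyclin gene CCND2 at 1.03. IFI44 read 118, 69.0, 11.8 and 741 in CL1-5 with the PSAT1 hairpin, CL1-5 with the non-silencing hairpin, CL1-0 with PSAT1 and CL1-0 with vector, so that it too was highest on the CL1-0 vector array.

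The other genes of these systems were read from 6 lists, 107 genes together, of which 105 had a named probe set. Between the control arrays 67 were measured, and 15 of them (22.4%) were higher in CL1-5 and 12 (17.9%) lower, where 5.25% and 24.8% of all genes were. All 15 that were higher, and 8 of the 12 that were lower, held under both quantile normalization and median centring. The others, ITGB5, PROS1, SERPING1 and YES1, were under 2-fold after at least 1 of these scalings. Both scalings raised the median ratio over all genes, from -0.49 to 0.00 and 0.09. They thus favour higher calls and work against lower ones, so the 15 that held are no check on those calls.

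Of the plasminogen receptors and surface proteases, 14 of 18 were measured, 1 was higher and 2 lower, with a median log2 ratio of -0.18 against -0.49 over all genes. S100A10, a subunit of the annexin A2 complex that binds plasminogen, read 8606 in CL1-5 with the PSAT1 hairpin, 9070 with the non-silencing hairpin, 116 in CL1-0 with PSAT1 and 445 with vector. It was 20.4-fold higher in CL1-5 than in CL1-0 between the control arrays, and 7.23-fold with the mean over probe sets. Its partner ANXA2 had 13625 in CL1-5 with the non-silencing hairpin and 10042 in CL1-0 with vector, under 2-fold. SPINT2, a Kunitz inhibitor of matriptase and other surface proteases, was at least 8.37-fold lower in CL1-5 (34.2 against 410). Like TFPI, and unlike TFPI2, SPINT2 was above the floor on both CL1-0 arrays, with 799 in CL1-0 with PSAT1. The collagen receptor MRC2, a partner of the urokinase receptor, was 3.31-fold lower. Plasminogen itself (PLG) reached 49.6 in CL1-0 with vector and was at the floor on the other arrays. LRP1, the uptake receptor for activator and inhibitor complexes, had 112 in CL1-5 and 106 in CL1-0, and matriptase (ST14) had 52.8 and 59.4 in the same order.

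Among other serpins, 30 had a named probe set, 10 were measured, 3 were higher and 1 lower, with a median of 0.39. The 3 were intracellular protease inhibitors of clade B: SERPINB9, which inhibits granzyme B, at least 13.9-fold (681 in CL1-5 against 8.66 in CL1-0), SERPINB1 at least 9.18-fold (449.9 against 7.40) and SERPINB8 at least 6.51-fold (319 against 34.3). With the mean over probe sets SERPINB9 was 2.66-fold, SERPINB1 4.45-fold and SERPINB8 3.34-fold higher. SERPING1, the C1 inhibitor, was at least 2.28-fold lower.

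Of the coagulation genes and their receptors, 10 of 21 were measured, 1 was higher and 2 lower, with a median of 0.08. THBD, thrombomodulin, which turns thrombin to the activation of protein C, read 1721 in CL1-5 with the PSAT1 hairpin, 2484 with the non-silencing hairpin, 10.1 in CL1-0 with PSAT1 and 9.66 with vector. Between the control arrays it was at least 50.7-fold higher in CL1-5, so an anticoagulant receptor and tissue factor were both high there. Coagulation factor XII (F12) was 6.61-fold lower in CL1-5 (210 against 1387). With the mean over probe sets THBD was 23.0-fold higher and F12 3.12-fold lower. PROCR, the protein C receptor, had 898 in CL1-5 and 499 in CL1-0 (log2 ratio 0.85), and the thrombin receptor F2R had 543 and 411 (0.40). Both passed 2-fold under quantile normalization, at 1.52 and 1.06.

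**Figure D3:**
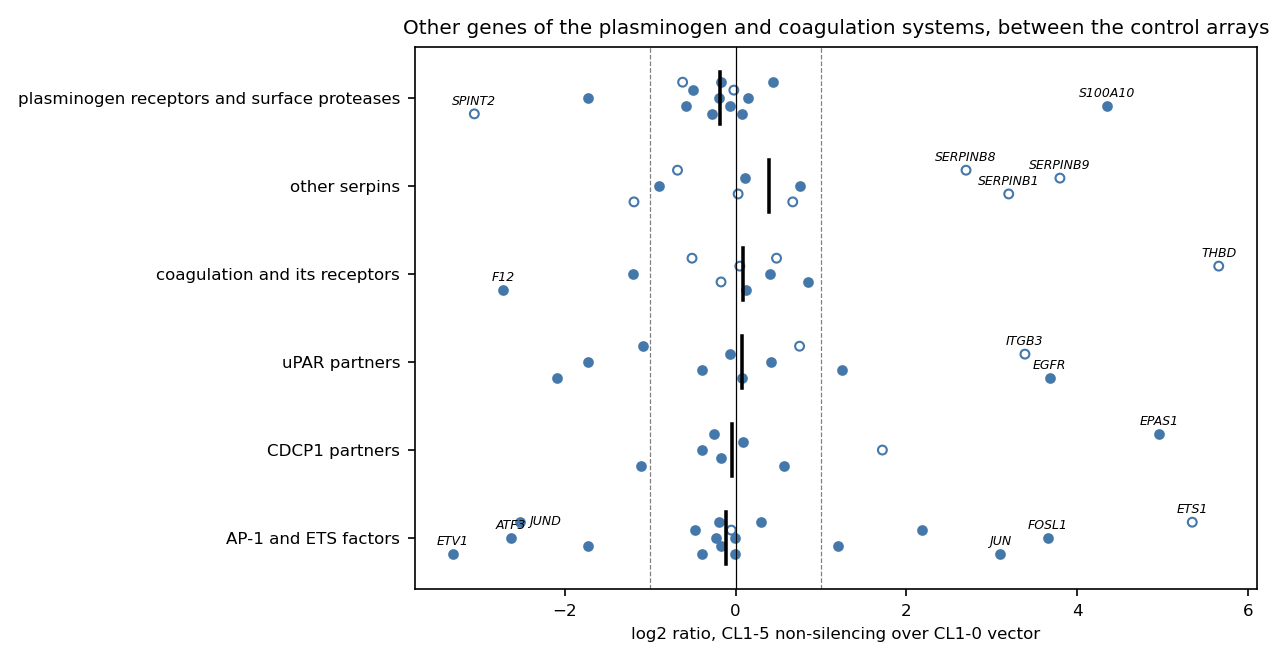
Log2 ratio of CL1-5 non-silencing over CL1-0 vector for every measured gene of the 6 wider lists. Open symbols are bounds with 1 array at the floor, black bars are list medians, dashed lines mark 2-fold, and genes beyond 2.5 are named. THBD, ETS1, EPAS1 and S100A10 lie farthest to the right, and ETV1 and SPINT2 farthest to the left.

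Among partners of the urokinase receptor, 11 of 13 were measured, 3 were higher and 3 lower, with a median of 0.08. The integrin subunit ITGB3 was at least 10.5-fold higher in CL1-5 (512 against 26.7), EGFR 12.8-fold (837 against 65.2) and ITGA3 2.38-fold. With the mean over probe sets EGFR was 2.51-fold and ITGB3 2.28-fold higher. ITGB3 was 1.89-fold without probe sets that may read several transcripts, and ITGA3 was 1.67-fold with the 65th percentile floor. ITGAV, the alpha subunit that pairs with ITGB3, was 4.25-fold lower (1978 against 8408), and MRC2 and ITGB5 were the other 2 that were lower. Of partners of CDCP1, 8 of 9 were measured, 2 were higher and 1 lower, with a median of -0.04. EPAS1, the hypoxia-inducible factor 2 alpha gene, was 31.1-fold higher (3286 against 106) and CDH2 at least 3.29-fold. With the mean over probe sets EPAS1 was 3.15-fold higher, and with the 65th percentile floor CDH2 was under 2-fold (at least 1.59-fold). SRC, the kinase that phosphorylates CDCP1, had 174 in CL1-5 and 163 in CL1-0, and YES1, of the same family, was 2.16-fold lower.

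Of the AP-1 and ETS factors, all 18 were measured between the control arrays, 5 were higher and 4 lower, with a median of -0.11. ETS1 read 1674 in CL1-5 with the PSAT1 hairpin, 1999.9 with the non-silencing hairpin, 15.8 in CL1-0 with PSAT1 and 27.8 with vector, at least 40.8-fold higher between the control arrays. FOSL1 (FRA1) was 12.7-fold higher (884 against 69.8), JUN 8.59-fold (4281 against 498), ETS2 4.56-fold and FOSL2 2.30-fold. ETV1 was 9.90-fold lower (89.4 against 885), ATF3 6.21-fold, JUND 5.73-fold and JUNB 3.32-fold. Members of both families thus lay on both sides. JUN was 2.63-fold higher without probe sets that may read several transcripts, where ATF3 was at the floor on both arrays and JUND had no probe set. With the mean over probe sets ETS1 was 9.59-fold and ETS2 2.34-fold higher, ETV1 was 2.76-fold and ATF3 2.33-fold lower, and FOSL2 (1.28-fold) and JUND (1.69-fold) were under 2-fold.

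With PSAT1 in CL1-0, 55 of the wider genes were measured, 0 were higher (2.56% of all genes) and 3, or 5.45%, were lower (1.01%). S100A10 fell 3.84-fold (116 with PSAT1 against 445 with vector), JUN 2.10-fold (238 against 498) and FOS 2.05-fold (61.7 against 127). SPINT2 had 799 against 410 (log2 ratio 0.96), PROCR 298 against 499 (-0.74) and F2R 698 against 411 (0.76), all under 2-fold. EGR1 had 579 against 1104 (-0.93), also under 2-fold. THBD, ETS1 and ITGB3 were at the floor on both CL1-0 arrays.

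With the PSAT1 hairpin in CL1-5, 62 of the wider genes were measured, 0 were higher and 1 was lower (0.421% of all genes), the immediate early factor EGR1, which read 222 with the PSAT1 hairpin against 791 with the non-silencing hairpin, a 3.57-fold fall. FOS had 36.6 against 96.6, a bound of 1.97-fold. Of the 11 measured partners of the urokinase receptor, 0 had a positive ratio, where 52.7% of all measured genes had, and their median was -0.22 against 0.02 over all genes. The AP-1 and ETS list had 4 positive ratios of 17 and a median of -0.26, and the CDCP1 partners had 2 of 8 and -0.14, so negative medians were not limited to the partners of the receptor. Among those partners, ITGB5 (-0.53), ITGAV (-0.49), ITGB3 (-0.46) and ITGA3 (-0.41) had the most negative, next to -0.59 for PLAU and -0.15 for PLAUR. ITGAM and FPR1 had the same value on both arrays to every deposited digit, as did F2R and 1749 probe sets in all, but none of the member probe sets. The 2 CL1-0 arrays likewise shared 1260 such values, and the control arrays of the lines 0, again with no member probe set among them. How these equal values arose is not known, and they were kept in the counts and SDs given above. THBD had 1721 against 2484 (-0.53), S100A10 -0.08, FOSL1 0.15 and ETS1 -0.26. All of these, other than EGR1, were under 2-fold.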

How the data were processed

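Total RNA (6 ug per the labels' protocols) was labelled with biotin and read on 1 array per group. The authors deposited 1 linear intensity per probe set and array, made with MAS5, per the submitters' processing notes. Its version, scaling target and detection calls are not given in the sources used here. Names came from the platform annotation, with 1 symbol for 41097 of 54675 probe sets and several for 1801, and 41043 were updated through RefSeq gene IDs. Y-linked and X-inactivation genes (59 probe sets) were left out.

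Signals below the pooled 50th percentile (49.0) were set to it and log2 transformed. Of several probe sets of a gene, the one brightest on average after this step stood for it. With 1 array per group no test was run, and the number of arrays limits the precision. The calculation was tested on simulated data. Python 3.11.15, NumPy 2.4.6, pandas 2.3.3 and Matplotlib 3.10.9 were used.

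The members, lists and naming rule were chosen with earlier results of these data known. Named genes were all member probe sets, PSAT1, the 2 nearest genes of each member ranging over at least 1 log2 unit, up to 5 of the largest differences per wider list and comparison, and a few fixed genes. Where a count was 5 or fewer, its other genes were named after their values were seen. A comparison of the members' proteins that had been planned was not made. The alternatives were 2 scalings, 2 floors, the mean over probe sets and leaving out probe sets that may read several transcripts.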

Additional observations from a re-analysis of the deposited data

How the results depend on the processing

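The 5 member genes higher in CL1-5 were 3 without multi-transcript probe sets, because PLAU and PLAT then have none. PLAT was also under 2-fold with the 65th percentile floor, which left 4. The 2 members lower with PSAT1 in CL1-0 were 1 with the mean over probe sets, where TFPI had -0.84. No member reached 2-fold with the hairpin in CL1-5 under any alternative, and no value of a member that was called changed sign. Of 114 member ratios under alternatives, 80 moved by less than the SD between probe sets of a gene and 34 by more. Bounds move with the floor: at the 25th percentile PLAU was at 6.59, TFPI at -5.45 and TFPI2 at -4.30 between the lines, and THBD at 7.15, so no order of the bounds was read. With the mean over probe sets, CDCP1 was at 3.28 and TFPI at -1.54 between the lines. In the wider lists, PSAT1 in CL1-0 gave 1 rise, ITGB5, without multi-transcript probe sets. Of its 3 falls, JUN was lost with the mean over probe sets and without multi-transcript probe sets, S100A10 with the mean and FOS with the 65th percentile floor. The hairpin gave 2 falls, EGR1 and FOS, under quantile normalization, median centring and the 25th percentile floor, and 0 without multi-transcript probe sets. The 12 wider genes lower in CL1-5 were 7 without them. Over all genes, calls between the lines were 720 higher and 3402 lower (17.5% higher), but 1306 and 1223 (51.6%) under quantile normalization and 1436 and 1189 (54.7%) under centring. No paired analysis was possible because each group has 1 array. Signal over background limits F3 and CDCP1 in CL1-0 and PLAT in CL1-5, which lie near the floor.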
